A study of Mus musculus with 4 samples.

Results

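The nuclear-encoded subunits of the mitochondrial respiratory chain and of ATP synthase were followed in lung tissue around B16-F10 metastases of Lf-/- mice, which lack lactoferrin (KO), and of wild-type mice (WT). They were chosen by gene symbol (Nduf subunits of families a, b, c, s and v, Sdha to Sdhd, and symbols that begin with Uqcr, Atp5, or Cox5 to Cox8 with a subunit letter), which gave 82 of the 21499 genes listed. By name, 37 belong to complex I, 4 to complex II, 8 to complex III, 16 to complex IV and 17 to complex V. The symbols leave out Cox4i1, Cox4i2, Cyc1 and Ndufab1, whose values are given with the other mitochondrial genes. Ndufa4 is counted here with complex I by its name, although its protein is known as a subunit of complex IV. Its paralog Ndufa4l2 is placed in complex I by name alone, and so are Atp5s and Atp5sl in complex V.

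RNA was sequenced from 2 KO mice and 2 WT mice, 1 library each, of the 10 mice per genotype that the labels describe. The labels give strain C57B/L6 and males aged 8 weeks for both genotypes. All of them received 200000 B16-F10 cells, a mouse melanoma line that colonises the lung, through the tail vein and were killed after 3 weeks. The tissue was whole lung around the colonies with tumour excluded, according to the labels, so no uninjected lung and no sorted cell type stands beside it. Levels are given as FPKM, a fragment number divided by transcript length and by the size of the library, so different genes can be compared per length.

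The respiratory chain sits in the inner mitochondrial membrane. Complex I takes electrons from NADH and complex II from succinate, complex III passes them on to cytochrome c, and complex IV gives them to oxygen. Complexes I, III and IV pump protons, and complex V, the ATP synthase, uses the returning protons to make ATP. Apart from complex II, each complex joins nuclear-encoded subunits with others made from mitochondrial DNA. Complex IV also has subunits with tissue forms, of which Cox6a2, Cox7a1 and Cox8b are known from heart, skeletal muscle and, for the last pair, brown fat. In bulk tissue, fewer cells of a type and less RNA per cell cannot be told apart.

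The libraries had 12231 to 12345 genes at an FPKM of at least 1 in KO and 12421 to 12590 in WT. Their FPKM summed to 317976 to 388799 in KO and 375543 to 400153 in WT, and read totals are unknown. Ltf, the knocked-out gene (chromosome 9, 111019271 to 111042767, plus strand, GRCm38), had 0.104 and 0.533 FPKM in KO mice 1 and 2, against 79.2 and 7.32 FPKM in WT mice 1 and 2. Its log2 difference was -4.31 (SE 1.09), with an adjusted p of 0.89 by limma. The label of male sex was not met alike in both groups: the Y-linked Eif2s3y had 24.2 and 22.0 FPKM in KO, against 0.0426 and 0 FPKM in WT. For every gene, genotype thus cannot be told apart here from Y-linked transcription or a possible difference in sex. Scgb1a1, the club cell secretoglobin, was listed at 0 in KO mouse 2, against 69980 FPKM in KO mouse 1 and 60454 to 72936 FPKM in WT. Melanocyte markers summed to 6.30 and 2.29 FPKM in KO, against 4.82 and 99.0 FPKM in WT, so WT mouse 2 stands apart in them; 3 of 5 such markers were tested and Mlana and Pmel were at their highest there. Cardiac muscle markers stand apart too and are given with the results they move with.

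The chain subunits were abundant in every library, but not evenly. Their FPKM summed to 5576 and 6254 in KO mice 1 and 2, against 6317 and 4769 in WT mice 1 and 2, so the genotypes overlapped. This was 1.43% and 1.97% of all FPKM in KO, against 1.58% and 1.27% in WT. Without Scgb1a1 in the total the shares were 1.75% and 1.97% in KO, against 1.93% and 1.51% in WT. The median member had a mean of 44.7 FPKM over the 4 libraries, against 2.44 FPKM for all genes listed. Of the 82 members, 20 had a mean of at least 100 FPKM and 16 had a mean under 5 FPKM.

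By complex, the median member of complex II was highest in level at 70.6 FPKM, followed by complex III at 62.4, complex V at 57.1, complex I at 38.4 and complex IV at 34.6 FPKM. Complex II was also the most even in level, with means between 18.2 FPKM for Sdhc and 80.7 FPKM for Sdhd, the pair of membrane anchors. The widest span was in complex IV, which holds both the most abundant member, Cox8a at a mean of 367 FPKM, and Cox8c, which was listed at 0 in all 4 libraries. Cox8c and Cox7b2 are testis forms; Cox7b2 had 0.364 and 0.253 FPKM in KO and was listed at 0 in both WT libraries.

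**Figure D1:**
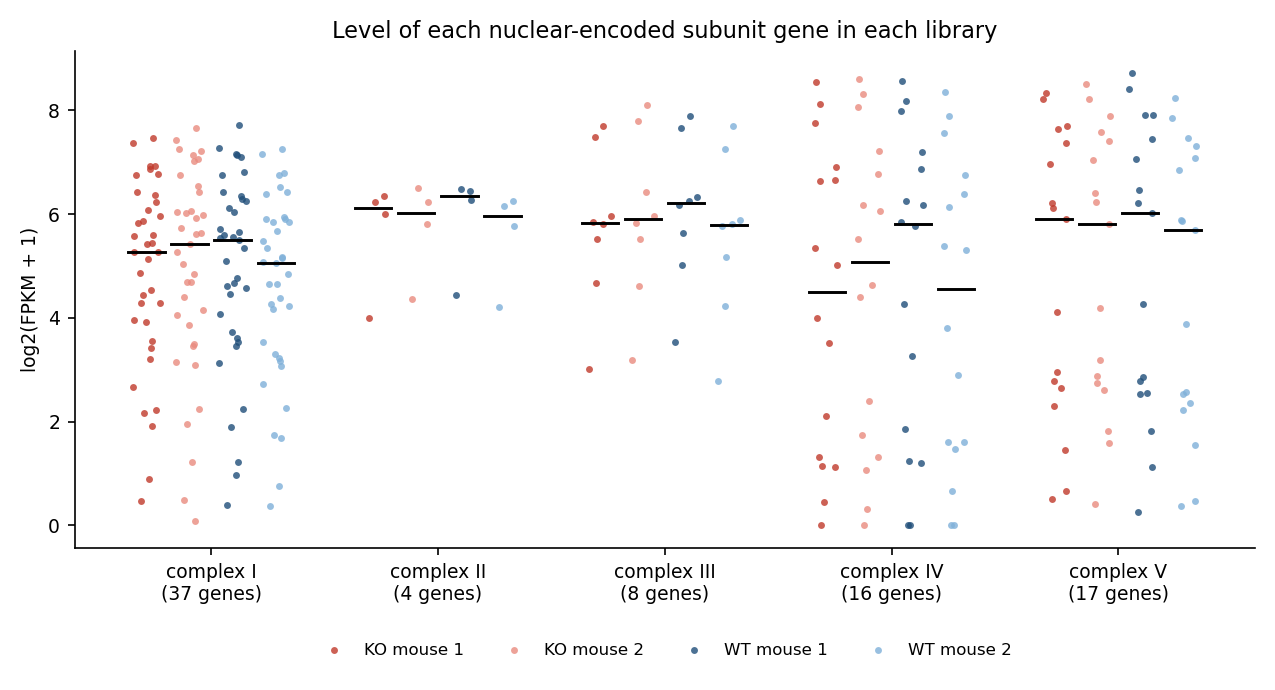
FPKM of each of the 82 subunit genes on a log2(FPKM + 1) axis, by complex and library, with KO mice in red and WT mice in blue; each point is 1 gene and each bar the median of the complex in that library. Members of one complex span a wide range, from Cox8c at 0 to Cox8a at a mean of 367 FPKM within complex IV, and the bars of the genotypes overlap in each complex.

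Subunits that a complete complex needs were listed at very different levels. Ndufb4, a membrane subunit of complex I, had 0.382 and 0.399 FPKM in KO, against 0.320 and 0.290 FPKM in WT, while Ndufa4 reached 175 and 202 FPKM in KO and 211 and 153 FPKM in WT. Cox5b, a subunit of every complex IV, had 1.19 and 1.50 FPKM in KO, against 1.30 and 2.05 FPKM in WT. Its partner Cox5a, by contrast, had 119 and 149 FPKM in KO, against 147 and 108 FPKM in WT. Atp5l, subunit g of the ATP synthase, had 0.587 and 2.00 FPKM in KO, against 1.20 and 0.387 FPKM in WT. Ndufb4 and Cox5b were chosen here after their values were seen.

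Near-identical copies were one property that moved with these levels. Atp5l has 9 annotated transcripts of other genes that match it at 95% identity or more over at least 50% of its length, and reads shared with such copies may be counted elsewhere or dropped. The 14 members with such a copy had a median of 7.87 FPKM, against 54.5 FPKM for the 68 members without one. With a looser match (90% over 30%) the 37 members with a copy had a median of 24.3 FPKM, against 46.5 FPKM for the other 45. Not all low members have a copy by the stricter match: Ndufb4 and Cox5b have none by it, although each has 1 by the looser match. How reads with several matches were counted is not given in the sources used here, and the part of copies in the low values was not tested. The same holds for Atp5g1, Atp5g2 and Atp5g3, whose genes encode the same mature ring subunit c: Atp5g3 had 164 and 169 FPKM in KO, against 175 and 135 FPKM in WT, whereas Atp5g1 had 1.76 and 2.54 FPKM in KO, against 2.53 and 1.95 FPKM in WT. In all, 28 members overlap an exon of a different gene, 25 of them one on the opposite strand, and the strand setting of the counts is not given.

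**Figure D2:**
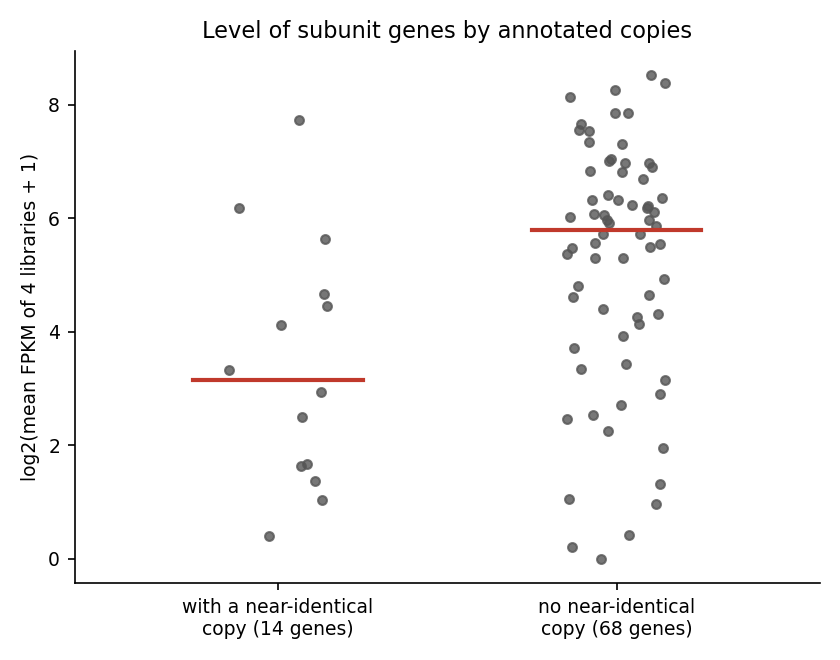
Mean FPKM of the 4 libraries on a log2(FPKM + 1) axis for the 14 members with a near-identical annotated copy and the 68 without; each point is 1 gene and the red bar is the median. The medians are 7.87 and 54.5 FPKM, and the ranges overlap.

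Between genotypes, 77 members had at least 1 FPKM in at least 2 libraries and were tested; Atp5g2, Cox7b2, Cox8c, Ndufa3 and Ndufb4 were not. No member passed the test at an adjusted p of 0.05, and 0.0239% of all 12573 tested genes did. Those 3 genes were the Y-linked Eif2s3y and Ddx3y, and Rpl29. Rpl29 had 0.240 and 0 FPKM in KO, against 90.3 and 174 FPKM in WT. The lowest adjusted p of a member was 0.89. At an unadjusted p of 0.05 by limma no member was called either, against 5.11% of all tested genes. The log2 difference, KO minus WT on the log2(FPKM + 1) scale, was positive for 54 members and negative for 23, with a median of 0.10. Over all tested genes 6138 differences were positive and 6435 negative, with a median of -0.01. Without WT mouse 2 the count of positive members was 24 of 77 and the median -0.12, so the lean toward KO depends on that library. The median was 0.01 without KO mouse 2, 0.15 without KO mouse 1 and 0.30 without WT mouse 1. No member was 2-fold apart without overlap between genotypes, against 1.19% of all tested genes.

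Both KO libraries lay above both WT libraries for 12 of the 77 members (15.6%), close to the 18.5% of all tested genes. Both lay below for none, against 17.5% of all tested genes. By name, the 12 were 9 complex I genes and 3 complex V genes, and none came from complexes II, III and IV. Ndufa4l2 is counted there with complex I, and Atp5s with complex V, by name alone. Of the 9 tested Ndufb genes, which encode supernumerary subunits of the membrane arm, 5 were among the 12. The remaining 65 members overlapped between genotypes.

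**Figure D3:**
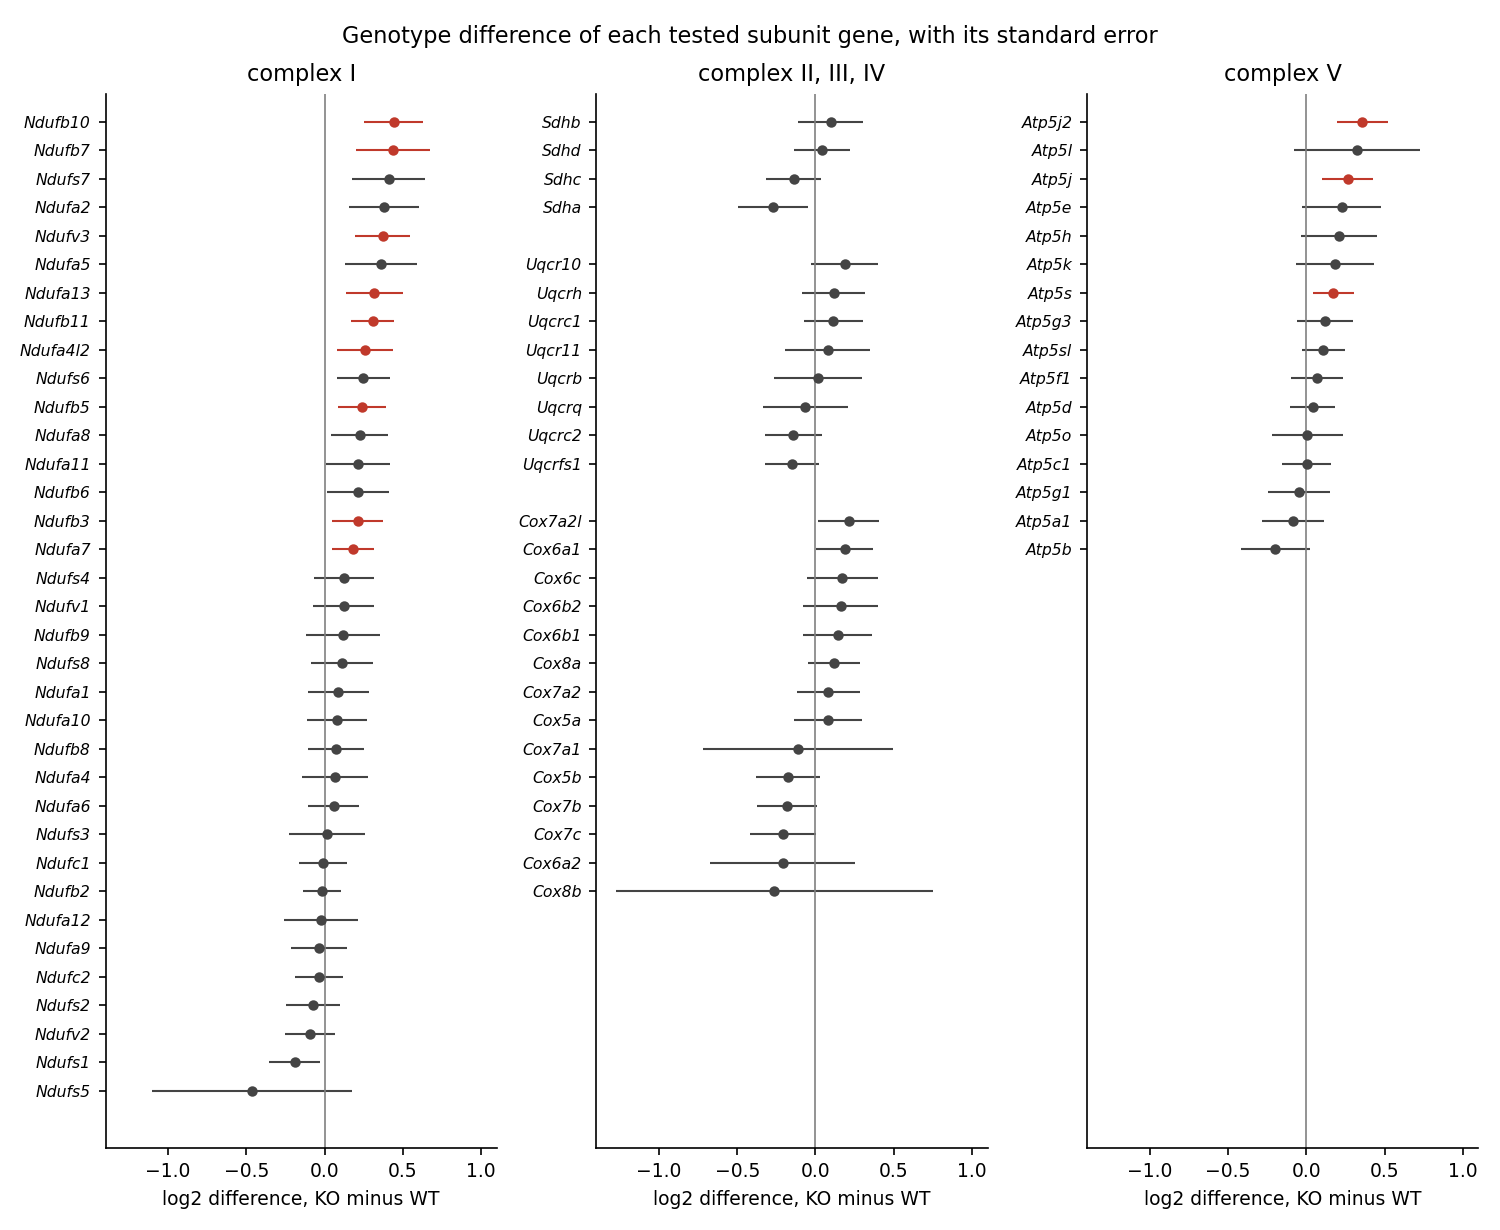
Log2 difference, KO minus WT on the log2(FPKM + 1) scale, of each of the 77 tested subunit genes by complex, with its standard error by limma as a line; red marks the 12 genes whose KO libraries both lay above both WT libraries. Differences run from -0.46 for Ndufs5 to 0.44 for Ndufb10, and none passed the test.

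Complex I, the NADH dehydrogenase, had 26 positive and 9 negative differences among its 35 tested genes, with a median of 0.12. The largest was that of Ndufb10, a subunit of the distal membrane arm (chromosome 17, 24722060 to 24724478, minus strand), at 47.6 and 59.7 FPKM in KO, against 44.1 and 34.5 FPKM in WT. Both KO libraries were higher than both WT libraries, with a log2 difference of 0.44 (SE 0.19) and an adjusted p of 0.89 by limma. Ndufb11, an X-linked subunit of the same arm, had 55.9 and 52.2 FPKM in KO, against 47.4 and 39.9 FPKM in WT, with a log2 difference of 0.31 (SE 0.14, adjusted p 0.89 by limma). Ndufa7 also separated, at 165 and 171 FPKM in KO, against 155 and 142 FPKM in WT. The other X-linked genes overlapped: Ndufa1 had 121 and 141 FPKM in KO, against 142 and 106 FPKM in WT. The 7 tested genes of the hydrophilic core, which include those that carry the flavin and the iron-sulphur clusters, had a median difference of 0.01 and no non-overlap.

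The most negative member was Ndufs5 (chromosome 4, 123712710 to 123718202, minus strand), a small intermembrane-space subunit with 1 near-identical copy. It had 2.76 and 0.0553 FPKM in KO, against 1.34 and 2.23 FPKM in WT. KO mouse 2 is low and KO mouse 1 is the highest of the 4, so the groups overlap and the log2 difference of -0.46 has an SE of 0.64. Ndufa4l2, a paralog of Ndufa4 known from hypoxic cells and pericytes, had 34.3 and 24.8 FPKM in KO, against 24.4 and 24.0 FPKM in WT. KO mouse 2 stands near both WT mice, and the log2 difference was 0.26 (SE 0.18, adjusted p 0.892 by limma). Pericyte markers summed to 62.7 and 34.9 FPKM in KO, against 55.0 and 47.2 FPKM in WT. Of the 4 markers, all tested, Pdgfrb and Higd1b were highest in KO mouse 1 and Cspg4 and Kcnj8 in WT mouse 1. KO mouse 2 was lowest for all 4, whereas for Ndufa4l2 it lay above both WT mice. Their part in the level of Ndufa4l2 was not tested.

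Complex II, succinate dehydrogenase, is also an enzyme of the tricarboxylic acid cycle. Its flavoprotein gene Sdha had 80.9 and 54.9 FPKM in KO, against 86.4 and 75.3 FPKM in WT, with KO mouse 2 lowest. The iron-sulphur gene Sdhb had 63.5 and 73.8 FPKM in KO, against 75.9 and 53.8 FPKM in WT. Sdha and Sdhb thus put the 4 libraries in different orders, and the log2 differences were -0.27 (SE 0.22) and 0.10 (SE 0.21). The 4 genes had 2 positive and 2 negative differences, and all of them overlapped between genotypes.

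Complex III had 5 positive and 3 negative differences with a median of 0.05. Uqcrh, the hinge subunit that binds cytochrome c1, was its most abundant gene at 207 and 276 FPKM in KO, against 237 and 206 FPKM in WT. Uqcrfs1, the Rieske iron-sulphur protein, had 56.4 and 55.6 FPKM in KO, against 71.7 and 53.8 FPKM in WT. WT mouse 1 is high and the other libraries lie close together, and the log2 difference was -0.15 (SE 0.17). Uqcrc1, a core protein whose gene lies at -2.08 Mb from Ltf on chromosome 9, had 44.8 and 45.1 FPKM in KO, against 49.0 and 35.1 FPKM in WT. All 5 members on chromosome 9, the chromosome that carries the Lf deletion, overlapped between genotypes.

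Complex V had 13 positive and 3 negative differences among 16 tested genes, with a median of 0.11. Atp5b, the catalytic beta subunit, was its most abundant gene at 322 and 296 FPKM in KO, against 419 and 300 FPKM in WT. WT mouse 1 is high and WT mouse 2 lies between the KO mice, with a log2 difference of -0.20 (SE 0.22). Atp5j2, subunit f of the membrane part, had 6.77 and 8.11 FPKM in KO, against 6.25 and 4.95 FPKM in WT. Its KO libraries lay above its WT libraries, with a log2 difference of 0.36 (SE 0.16) and an adjusted p of 0.89 by limma. Atp5e, the epsilon subunit of the central stalk, had 295 and 362 FPKM in KO, against 338 and 231 FPKM in WT, which overlap.

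Whether a complex moved apart from the others between genotypes cannot be settled by a permutation test with 2 mice against 2, as its p cannot fall under 0.333. For each complex the mean log2(FPKM + 1) of its tested genes was taken minus that of all other members in each library. KO minus WT in this measure was 0.10 for complex I, -0.16 for complex II, -0.07 for complex III, -0.10 for complex IV and 0.03 for complex V. Both KO libraries lay below both WT libraries for complexes II and III and above both for complex V. For complexes I and IV the genotypes overlapped. The exact two-sided permutation test over the 4 libraries gave p = 0.667 for complexes I and IV and 0.333 for complexes II, III and V, the smallest it can give with 2 mice against 2. Adjusted over the 5 complexes these were 0.556 to 0.667.

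The larger difference lay between mice of one genotype. WT mouse 2 was the lowest of the 4 libraries for 63 of the 77 tested members (81.8%), against 33.8% of all tested genes. WT mouse 1 was the highest for 38 members (49.4%), against 25.6% of all tested genes, and KO mouse 2 for 27. The median log2 difference of WT mouse 1 minus WT mouse 2 was 0.40 over members and 0.04 over all tested genes. That of KO mouse 1 minus KO mouse 2 was -0.17 over members and 0.04 over all tested genes. Members thus differed more between the 2 WT mice than between genotypes: the median absolute difference was 0.40 between the WT mice, against 0.14 between genotypes. It was 0.19 between the KO mice. Over all tested genes these were 0.16 between WT mice, 0.17 between KO mice and 0.13 between genotypes. The genotype value compares means of 2 libraries and the others single libraries, so averaging alone makes it smaller. All 5 complexes had WT mouse 1 with the highest summed FPKM or next to KO mouse 2, and WT mouse 2 with the lowest. For complex I the sums were 1867 and 2124 FPKM in KO, against 2005 and 1537 FPKM in WT. For complex V they were 1553 and 1645 FPKM in KO, against 1813 and 1314 FPKM in WT. WT mouse 2 is also the library in which melanocyte markers summed to 99.0 FPKM, and the part of tumour RNA in its lower subunit levels was not tested.

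**Figure D4:**
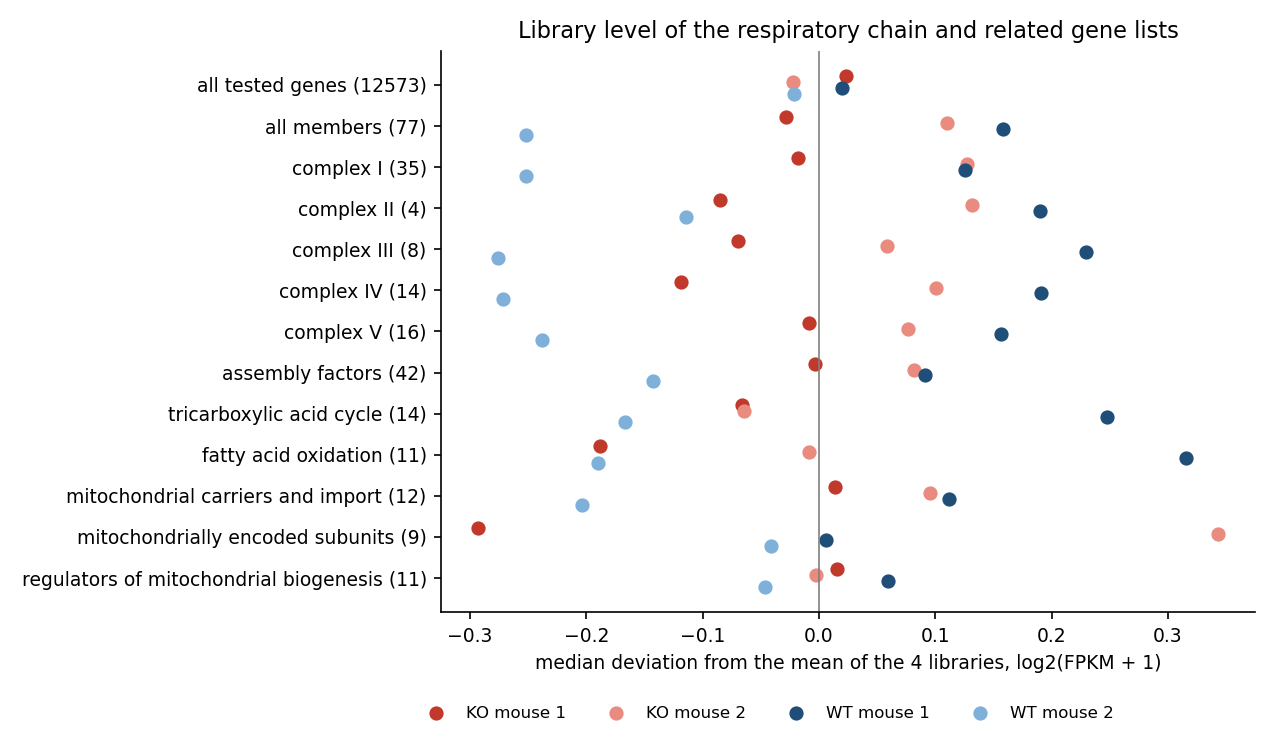
Median deviation of each library from the mean of the 4, in log2(FPKM + 1), for all tested genes, the members, each complex and other mitochondrial lists, with the number of tested genes in brackets; KO mice are red and WT mice blue. WT mouse 2 (pale blue) lies at -0.25 over members and WT mouse 1 (dark blue) at 0.16, while the 4 libraries lie within 0.03 of 0 over all tested genes.

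The cardiac muscle markers put the libraries in the same order as the members' median deviation did. Their summed FPKM was 399 and 1102 in KO, against 1723 and 283 in WT, and all 18 were above 0 in every library. Of the 17 tested cardiac markers, 15 had the order WT mouse 1, KO mouse 2, KO mouse 1, WT mouse 2 from high to low. Among the members 24 of 77 had that order (31.2%), against 5.94% of all tested genes; this order was chosen after the values were seen. Myh6, the atrial and adult ventricular myosin heavy chain, had 23.6 and 70.5 FPKM in KO, against 96.6 and 18.3 FPKM in WT. Nppa, the atrial natriuretic peptide, had 1.45 and 108 FPKM in KO, against 293 and 1.05 FPKM in WT. Skeletal muscle markers were low, at 7.12 and 16.2 FPKM summed in KO, against 23.8 and 5.07 FPKM in WT. All 3 that were tested had the same order as most cardiac markers. Acta1 was listed at 0 in all libraries, but an exact 0 in such files can be a failed estimate and is not read as absence. The part of cardiac muscle in the levels of the chain subunits was not tested. Alveolar type 2 markers did not follow this order: they summed to 26176 and 20603 FPKM in KO, against 26678 and 26881 FPKM in WT.

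The muscle forms of complex IV were among the 4 members with the widest spread between libraries. Cox6a2 (chromosome 7, 128205435 to 128206387, minus strand) had 31.3 and 66.1 FPKM in KO, against 71.6 and 38.9 FPKM in WT. Cox7a1 (chromosome 7, 30184144 to 30186078, plus strand) had 3.34 and 4.26 FPKM in KO, against 8.59 and 1.78 FPKM in WT. Cox8b (chromosome 7, 140898945 to 140900446, minus strand) had 10.5 and 23.8 FPKM in KO, against 53.5 and 6.51 FPKM in WT. Each was highest in WT mouse 1 and next in KO mouse 2, and the genotypes overlapped for each of them. The spread of Cox8b over the 4 libraries was 2.86 on the log2(FPKM + 1) scale, the widest of all tested members. Ndufs5 followed at 1.83, Cox7a1 at 1.78, Cox6a2 at 1.17 and Atp5l at 1.11, against a median of 0.48. The log2 differences between genotypes were -0.21 (SE 0.46) for Cox6a2, -0.11 (SE 0.61) for Cox7a1 and -0.26 (SE 1.02) for Cox8b, with adjusted p of 0.959, 0.989 and 0.982 by limma.

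The common forms, which most tissues use, stayed closer together. Cox6a1 had 278 and 318 FPKM in KO, against 290 and 236 FPKM in WT. Cox7a2 had 101 and 109 FPKM in KO, against 117 and 83.3 FPKM in WT. Cox8a had 374 and 390 FPKM in KO, against 377 and 328 FPKM in WT. WT mouse 2 was lowest for each of the 3, and each common form was more abundant than its muscle form in every library.

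As a share of the common form within a library, Cox6a2 was 11.2% and 20.8% in KO, against 24.7% and 16.5% in WT. Cox7a1 was 3.32% and 3.92% in KO, against 7.36% and 2.14% in WT. Cox8b was 2.80% and 6.10% in KO, against 14.2% and 1.98% in WT. On the log2 scale these ratios differed by -0.40, -0.20 and -0.38 between KO and WT, with p = 0.667, 1 and 1 by the exact two-sided permutation test. The within-WT spread was larger than each difference: the SD of the Cox8b ratio was 1.88 between the 2 WT mice. Brown fat markers summed to 3.19 and 6.27 FPKM in KO, against 66.3 and 3.95 FPKM in WT, and 2 of the 5 were tested. WT mouse 1 lay far above the rest in them. It was also highest for Cox8b at 53.5 FPKM, but there KO mouse 2 followed at 23.8 FPKM. White fat markers summed to 11.2 and 8.39 FPKM in KO, against 226 and 0.887 FPKM in WT, and 1 of the 4 was tested. Ucp1, the uncoupling protein that defines brown fat, was at or under 0.118 FPKM in both KO mice and in WT mouse 2, against 45.3 FPKM in WT mouse 1. The part of heart muscle, brown fat and white fat in the isoform levels was not tested.

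**Figure D5:**
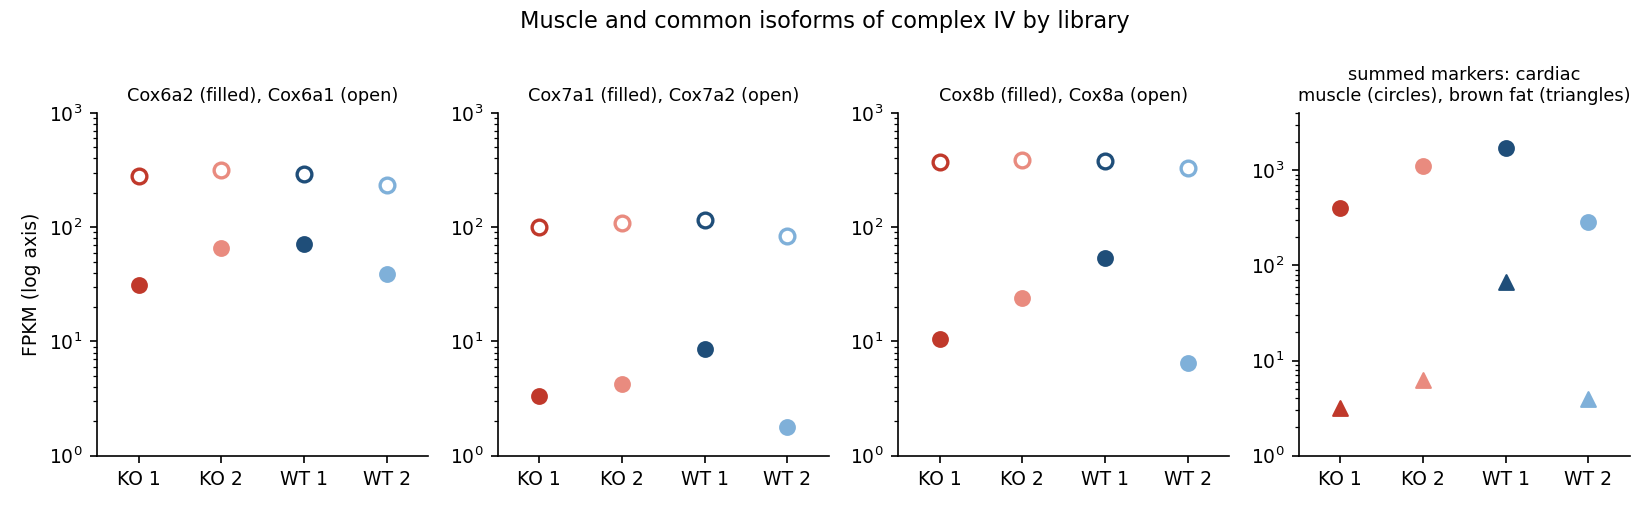
FPKM on a log axis of each muscle form of complex IV (filled) and its common form (open) in KO mice 1 and 2 (red) and WT mice 1 and 2 (blue), and the summed FPKM of 18 cardiac muscle and 5 brown fat markers in the same libraries. Cox8b ranges from 6.51 to 53.5 FPKM, both in WT, whereas Cox8a ranges from 328 to 390 FPKM.

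The start regions of the muscle and common forms for which RefSeq windows were found are shown, because the muscle forms spread further between libraries than their common partners. Each window runs from 250 bases before the start in RefSeq (GRCm38.p6) to 50 after it. Capitals mark the NRF-1 motif GCGCANGCG, the ETS motif CCGGAAG, the TATA motif TATAAA and the E-box CAGCTG, on either strand; YY1 (AAGATGG), ERR (TCAAGGTCA) and MEF2 were searched as well, and the only overlap in these windows is a pair of NRF-1 matches in Cox6a1, each on 1 strand of the same palindrome.
Cox8b, chr7:140900397-140900696, minus strand: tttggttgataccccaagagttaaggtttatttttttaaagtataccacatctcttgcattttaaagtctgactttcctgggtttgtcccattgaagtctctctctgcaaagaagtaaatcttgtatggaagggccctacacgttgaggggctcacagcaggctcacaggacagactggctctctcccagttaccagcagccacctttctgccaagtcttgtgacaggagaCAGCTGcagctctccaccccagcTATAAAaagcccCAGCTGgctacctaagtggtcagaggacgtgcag
Cox7a1, chr7:30183921-30184220, plus strand: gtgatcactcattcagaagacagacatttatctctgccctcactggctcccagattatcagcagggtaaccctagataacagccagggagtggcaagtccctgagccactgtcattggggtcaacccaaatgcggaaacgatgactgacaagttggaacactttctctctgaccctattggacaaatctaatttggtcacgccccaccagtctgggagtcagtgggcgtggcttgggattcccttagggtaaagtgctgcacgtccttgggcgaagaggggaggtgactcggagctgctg
Cox8a, chr19:7217567-7217866, minus strand: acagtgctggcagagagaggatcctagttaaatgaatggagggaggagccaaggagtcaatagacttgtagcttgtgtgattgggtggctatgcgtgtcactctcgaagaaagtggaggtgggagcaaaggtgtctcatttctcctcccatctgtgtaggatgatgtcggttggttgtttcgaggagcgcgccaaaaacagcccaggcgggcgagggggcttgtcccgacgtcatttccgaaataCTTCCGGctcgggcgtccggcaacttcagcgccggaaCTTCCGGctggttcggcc
Cox7a2, chr9:79759804-79760103, minus strand: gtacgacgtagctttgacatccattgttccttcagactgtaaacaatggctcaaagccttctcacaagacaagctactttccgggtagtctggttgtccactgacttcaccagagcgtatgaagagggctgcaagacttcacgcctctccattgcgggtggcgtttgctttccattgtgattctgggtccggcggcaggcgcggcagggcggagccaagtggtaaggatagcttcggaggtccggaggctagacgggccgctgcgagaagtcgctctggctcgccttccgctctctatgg
Cox6a1, chr5:115348909-115349208, minus strand: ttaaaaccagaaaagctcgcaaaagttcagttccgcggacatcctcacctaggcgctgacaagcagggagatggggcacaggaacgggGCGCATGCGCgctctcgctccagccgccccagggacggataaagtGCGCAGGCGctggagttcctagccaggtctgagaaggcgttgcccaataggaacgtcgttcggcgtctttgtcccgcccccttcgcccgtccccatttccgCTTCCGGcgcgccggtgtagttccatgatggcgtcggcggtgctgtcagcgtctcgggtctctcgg

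In the Cox8b window stand a TATA motif and a pair of E-boxes, whereas Cox8a has a pair of ETS motifs and Cox6a1 has an ETS motif and 3 NRF-1 matches. No searched motif lies in the window of the muscle form Cox7a1 or of its common partner Cox7a2, so the windows do not divide muscle from common forms by these motifs. RefSeq windows were found for 69 of the 82 members. The NRF-1 motif was present in 20 of the 69 (29.0%), against 7.03% of all 27025 genes with a window. ETS was present in 16 (23.2%, against 9.93% of all genes) and YY1 in 12 (17.4%, against 7.28%). Fewer members than genes in general had TATAAA (10.1%, against 15.7%) or CAGCTG (8.70%, against 18.3%). ERR was found in 2 members (2.90%, against 0.466% of all genes), and MEF2 in none, against 3.70% of all genes. NRF-1 and the ETS factor GABP are known regulators of nuclear respiratory genes; a match here is a run of letters, not a bound site.

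The remaining genes counted with complex IV included Cox7a2l, known as a factor in supercomplexes of complexes III and IV. Whether its protein has that role in the strain used was not examined. Cox7a2l had 99.0 and 71.3 FPKM in KO, against 75.3 and 69.6 FPKM in WT. KO mouse 1 was high and the others lay close together, with a log2 difference of 0.21 (SE 0.19). Cox6b2, a form known from testis, had 1.23 and 1.11 FPKM in KO, against 1.36 and 0.595 FPKM in WT. Cox7b, which is X-linked, had 39.6 and 45.2 FPKM in KO, against 56.4 and 41.0 FPKM in WT. Complex IV as a whole had 8 positive and 6 negative differences, with a median of 0.08, and all 14 tested genes overlapped between genotypes.

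Of 7 further chain subunits that the symbols leave out, 6 were tested and none passed the test. Cox4i2, a form of complex IV subunit 4 that is characteristic of lung, had 63.0 and 64.7 FPKM in KO, against 44.4 and 36.3 FPKM in WT. Its KO libraries lay above its WT libraries with a log2 difference of 0.66, but the adjusted p was 0.89 by limma. The common form Cox4i1 was listed at 0 in all 4 libraries; an exact 0 in such files can be a failed estimate, so it is not read as absence. Cyc1, cytochrome c1 of complex III, had 76.1 and 80.2 FPKM in KO, against 96.7 and 65.6 FPKM in WT. Ndufab1 had 3.09 and 3.72 FPKM in KO, against 4.12 and 3.06 FPKM in WT.

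The subunits made from mitochondrial DNA did not follow the nuclear ones. They summed to 11666 and 18389 FPKM in KO, against 14499 and 14163 FPKM in WT, so both KO libraries were outermost and the WT pair lay between them. KO mouse 2 was highest for 8 of the 9 tested genes, and WT mouse 2 was the lowest for 1. Of these 9, 6 had a positive and 3 a negative difference, and none passed the test. mt-Nd1, a complex I core subunit, had 1880 and 2885 FPKM in KO, against 2482 and 2089 FPKM in WT. mt-Atp6 of the ATP synthase was listed at only 0.443 and 0.292 FPKM in KO, against 0.516 and 0.801 FPKM in WT. It was under the filter and not tested, as were mt-Nd4l, mt-Co2 and mt-Co3. By contrast, mt-Co1 had 3940 and 6117 FPKM in KO, against 4669 and 4808 FPKM in WT. Such low values may be failed estimates, so they are not read as a lack of transcript.

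Other mitochondrial gene lists shared the library order in part. The 42 tested assembly factors, which build the complexes, had 24 positive and 18 negative differences, with a median of 0.03. The 14 genes of the tricarboxylic acid cycle had 3 positive and 11 negative differences, with a median of -0.09, and WT mouse 1 was highest for 13 of them. Cs, citrate synthase, had 52.5 and 52.9 FPKM in KO, against 66.6 and 51.6 FPKM in WT. The 11 fatty acid oxidation genes had 2 positive and 9 negative differences, with a median of -0.18, and WT mouse 1 was highest for all 11. Cpt1b, the muscle form of the enzyme that takes fatty acids into mitochondria, had 1.47 and 4.47 FPKM in KO, against 7.62 and 1.21 FPKM in WT. Of 11 tested regulators of mitochondrial biogenesis, 5 had a positive and 6 a negative difference; Ppargc1a had 0.774 and 0.647 FPKM in KO, against 1.07 and 1.39 FPKM in WT. The 12 carriers and import genes had 8 positive and 4 negative differences. No gene of these lists passed the test, and Cs, Cpt1b and Ppargc1a were chosen after their values were seen.

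Gene length, here the merged exons of all annotated transcripts of a gene, was set beside the differences between libraries. It can exceed the length of any single transcript and need not be the length used for FPKM. Spearman's rho of length with KO minus WT was -0.10 across the 77 members, against -0.23 across the 12258 tested genes with an annotated length. With KO mouse 1 minus KO mouse 2 it was 0.27 across the members, against 0.16 across all these genes. With WT mouse 1 minus WT mouse 2 it was -0.12 across the members, against -0.30 across all these genes. The tested members had a median length of 1587 bases. Of the 1148 tested genes at or under it, 680 had a positive KO minus WT difference. Their median was 0.07, against -0.01 for longer genes. Members had 0.12 at or under that length and 0.08 over it. WT mouse 1 minus WT mouse 2 had a median of 0.19 in short genes and 0.03 in longer ones, against 0.40 and 0.39 in members. The part of length in the members' lean was not tested. All of these are across genes, which share the same 4 libraries and are not independent replicates.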

How the data were processed

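Values were used as deposited: the authors made 1 FPKM per gene symbol in each of 4 libraries, 1 per mouse. The submitters' processing notes name TopHat, Cufflinks, HTSeq, DESeq and the build GRCm38, without saying which made the FPKM. The annotation, the strand setting and the treatment of reads with several matches are not stated. No count test suits FPKM, and read depth and counting intervals cannot be given.

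Each library listed 21545 rows, and 46 repeats of a symbol, none of a member, were added up. All 82 members matched GENCODE vM21 (GRCm38). The 12573 genes with at least 1 FPKM in at least 2 libraries were tested with limma 3.58.1 (lmFit, then eBayes with a trend; R 4.3.3) on log2(FPKM + 1). That scale shrinks the change of low genes. Genotype was the single factor, and p-values were adjusted by Benjamini-Hochberg over all tested genes at 0.05. The fit had 2 residual and 2.62 prior degrees of freedom. Complexes and isoform ratios were compared by exact permutation, whose smallest p is 0.333. On data simulated for the genotype comparison (12573 genes, 5 simulations), limma recovered 67.4% of genes shifted by 1 and 98.2% of those shifted by 3 (log2), and made 12.4 false calls on average. The simulated noise was normal and independent for each gene, with the variances of the fit and no shift shared within a library. It therefore does not give the power in the real libraries, where Ltf had a log2 difference of -4.31 and an adjusted p of 0.89 by limma.

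BLAST 2.17.0 found near-identical copies among annotated transcripts. Named members are the muscle and common isoforms, the 2 most abundant, the least abundant, the most positive and the most negative of the tested genes of each complex, those on chromosomes 9 and X, tissue-restricted forms and Cox7a2l. Any other was chosen after its values were seen, and the members, lists and tests were chosen with earlier results of these data known. The numbers of the mice name separate animals, so the replicates are animals. In limma the spread between animals of each gene is also drawn toward that of other genes of like level. Settings varied were the pseudocount (0.1 or 0.5), the filter (none, or a mean of 5 FPKM), the scaling (median ratio, quantile, or without haemoglobin, immunoglobulin and the 20 most abundant genes), the variance model (constant prior or robust), the mouse number as a block, and each library in turn. Tables and plots came from Python 3.11.15 with matplotlib 3.10.9, scipy 1.17.1, pandas 2.3.3 and numpy 2.4.6.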

Additional observations from a re-analysis of the deposited data

How the results depend on the processing

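No member was called under any alternative, and the lowest adjusted p of a member over all of them was 0.395 by limma. Of all tested genes 3 were called, against 1 with no filter, 0 with the mouse number as a replicate block, and 0 to 1 with a library left out. With that block 54 members were still positive. The mouse numbers name separate animals, and their deviations correlated at r = -0.34 over 12573 genes, so a crossed pairing was added after seeing the data; it called 4 genes and no member. Leaving out WT mouse 2 gave 24 of 77 members with a positive difference, against 54, and leaving out the others gave 40 to 69. The median over members was -0.12 without WT mouse 2 and 0.30 without WT mouse 1, and that of complex III lay between -0.25 and 0.30. Without the members that have a near-identical copy the median was 0.11. This and the count of positive members by setting were added after seeing the data.

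Leaving out a library turned the sign of 23 named genes, while the settings that kept all libraries turned none. With a library left out their log2 differences ranged from -0.74 to 0.32 for Cox6a2, -1.01 to 0.78 for Cox7a1, -0.022 to 0.45 for Cox7a2l, -1.69 to 1.17 for Cox8b, -0.32 to 0.040 for Sdhc, -0.43 to 0.30 for Uqcrq, -0.14 to 0.30 for Cox5a, -0.12 to 0.29 for Ndufa1. They ranged from -0.16 to 0.30 for Ndufa4, -1.38 to 0.45 for Ndufs5, -0.55 to 0.0036 for Sdha, -0.15 to 0.34 for Sdhb, -0.12 to 0.21 for Sdhd, -0.090 to 0.32 for Uqcrh, -0.44 to 0.043 for Atp5b, -0.41 to 0.043 for Cox7b. The remaining ranges were -0.35 to 0.056 for Uqcrfs1, -0.046 to 0.50 for Atp5e, -0.0087 to 0.78 for Atp5l, -0.12 to 0.44 for Cox6b2, -0.16 to 0.32 for Cox7a2, -0.013 to 0.39 for Uqcr10, -0.12 to 0.35 for Uqcrc1. Read depth is unknown, so it gives no precision for low genes.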
